A study of Mus musculus with 2 samples.

Results

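Mature neutrophils with low Il1b were defined here as 445 of the 22810 cell barcodes that passed filtering in 2 single-cell RNA libraries from healing mouse skull. Members were selected on their measured counts of 5 genes. A barcode was a member if it held at least 200 detected genes, at most 20% mitochondrial UMIs (unique molecular identifiers, each counting a captured transcript), at least 50 UMIs of S100a8, at least 2 of Csf3r, at least 1 of Cxcr2, fewer than 20 of Ltf and fewer than 10 of Il1b. There were 306 members of 10531 barcodes in the library from CGG-Cit hydrogel implants and 139 of 12279 in the library from CGG hydrogel implants. Both libraries came from C57BL/6 wild type mice with 2 mm defects of the parietal bones, an implanted hydrogel of either kind, and tissue taken on day 14 after surgery. The tissue was digested in 0.3% collagenase and passed through a 70 µm strainer before droplet-based sequencing of transcript 3′ ends. The labels do not spell out CGG or Cit, give no number or age of mice, and provide 1 library per hydrogel. A difference between the libraries therefore has no replicate check, and hydrogel, animal and library cannot be told apart.

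Neutrophils are short-lived phagocytes made in bone marrow, including that of the skull. As they mature they lose the ability to divide and fill their granules in sequence, first with primary granule proteases, then with secondary granule proteins such as lactoferrin, and last with tertiary granule enzymes such as gelatinase. Mature cells carry Cxcr2, through which they leave the marrow and follow chemokines, and on activation they induce cytokines such as interleukin 1 beta. The members thus had transcripts of the mature receptors with few of lactoferrin and interleukin 1 beta, both of which the rule limited.

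The libraries held 10806 and 12527 barcodes before filtering, with medians of 6212.5 UMIs per barcode in CGG-Cit and 3819 in CGG. The libraries shared 34 barcode sequences, of which 0 belonged to CGG-Cit members and 1 to a CGG member. B lineage barcodes (at least 3 UMIs of Cd79a, 1 of Cd79b and fewer than 50 of S100a8; 3926 in CGG-Cit and 970 in CGG) served as background for free RNA. They held Retnlg in 33.8% of CGG-Cit barcodes and 21.5% of CGG barcodes after every barcode was thinned to 2000 UMIs, at median depths before thinning of 3424.5 and 3151.5 UMIs. Members held it in 95.5% and 90.1% after the same thinning, with median depths of 5086 UMIs in CGG-Cit and 4630 in CGG. The median mitochondrial share of members was 0.191% of UMIs in CGG-Cit and 0.633% in CGG, and whether this moves any difference between the libraries was not tested.

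The given markers were present in nearly all members. Csf3r, the receptor for granulocyte colony-stimulating factor (chromosome 4, 126024550 to 126044440, GRCm38), had a median of 3 UMIs and a highest value of 12 in members of either library. Cxcr2 (chromosome 1, 74153989 to 74161246) had medians of 4 UMIs in CGG-Cit and 3 in CGG, with highest values of 17 and 12. Both genes were part of the rule. Retnlg, a secreted resistin-like protein of mature neutrophils (chromosome 16, 48872621 to 48874496), was not, and had a median of 230.5 UMIs (lowest 0, highest 822) in CGG-Cit members and 133 UMIs (0 to 580) in CGG members. Mmp9, the tertiary granule gelatinase (chromosome 2, 164940780 to 164955850), had medians of 12 UMIs (0 to 52) in CGG-Cit members and 9 UMIs (0 to 42) in CGG members. Il1b (chromosome 2, 129364570 to 129371139) was at 0 UMIs in 121 CGG-Cit members (39.5%) and 33 CGG members (23.7%), with medians of 1 and 3 UMIs. Ltf was at 0 in 165 CGG-Cit members and 92 CGG members.

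The label did not hold for the deepest members. Above 12000 UMIs, a limit chosen after the values were seen, there were 43 CGG-Cit members and 26 CGG members, which held 49.9% and 55.5% of all member UMIs. Retnlg stood at 5598 CPM (counts summed over barcodes, per 1000000 UMIs) in the deep CGG-Cit members and 2893 CPM in the deep CGG members, against 51567 and 37614 CPM in members with at most 12000 UMIs. Elane, the neutrophil elastase of primary granules, stood at 10254 and 4202 CPM in the deep members of CGG-Cit and CGG, against 69.1 and 57.3 CPM in the others. Mki67, a gene of dividing cells, had 2 or more UMIs in 30 of 43 and 14 of 26 deep members, against 1 of 263 and 3 of 113 of the others. The deep barcodes were not uniform. The 16 CGG-Cit members with 12000 to 20000 UMIs had 32.4 CPM of Elane, 67573 CPM of the hemoglobin gene Hba-a1 and 19235 CPM of Retnlg, and the 27 above 20000 UMIs had 12754, 5567 and 2262 CPM of these genes. Of all deep members, 22 of 43 in CGG-Cit and 7 of 26 in CGG held 100 or more Retnlg UMIs. They are described by their genes without a new name.

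Markers of several other lineages, though not of all, were also higher in the deep members. The 10 neutrophil markers summed to 84658 CPM in CGG-Cit and 86210 CPM in CGG above the limit, against 364097 and 317820 CPM up to it. The 7 myeloid progenitor markers, all detected in both depth ranges, summed to 27745 and 12104 CPM above the limit, against 196 and 246 CPM up to it. The 9 erythroid markers summed to 84347 and 10640 CPM above it, against 4196 and 3240 CPM up to it. The 9 stromal markers summed to 13.5 CPM in CGG-Cit and 12557 CPM in CGG above it, against 41.3 and 2512 CPM up to it. In CGG-Cit they were thus lower above the limit. The 10 B lineage markers were lower above it in both libraries, at 426 and 327 CPM against 783 and 395 CPM. So were the 8 endothelial and mural markers, at 16.7 and 68.9 CPM against 101 and 108 CPM. The 11 monocyte and macrophage markers summed to 265 and 2504 CPM above it, against 58.0 CPM in CGG-Cit, where C1qa, C1qc, Ms4a7, Mrc1 and Cx3cr1 were at 0, and 894 CPM in CGG, where all 11 were detected. At least 1 of 7 genes of other lineages or of division (Elane, Hba-a1, C1qa, Cd79a, Col1a1, Ccr2 and Mki67) passed its UMI minimum in 41 of 43 and 24 of 26 deep members, against 14 of 263 and 10 of 113 of the others. Scrublet scores, with the highest ranks marked at a rate set by the number of barcodes, marked 14 of 43 and 13 of 26 deep members as possible doublets, against 16 of 263 and 9 of 113 of the others. Values are therefore given for all members and for the 263 CGG-Cit and 113 CGG members with at most 12000 UMIs.

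**Figure D1:**
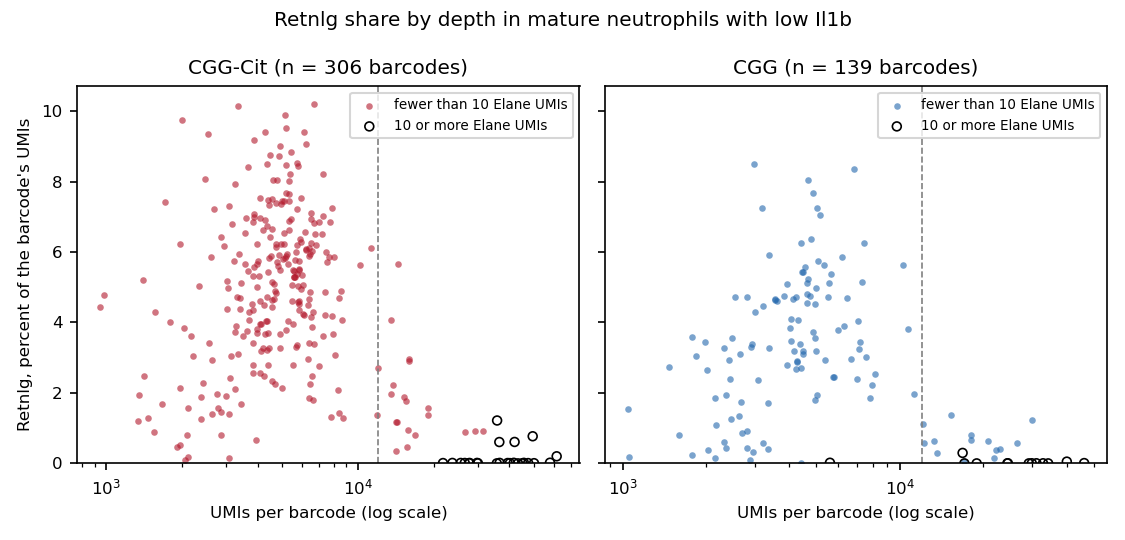
Each point is a member of the named library, with its total UMIs on a log axis and the percentage of its UMIs that are Retnlg on the vertical axis. Open circles mark barcodes with 10 or more Elane UMIs (24 in CGG-Cit and 13 in CGG), and the dashed line at 12000 UMIs has all but 1 of them to its right, where Retnlg summed over members is lower than to its left.

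In the plot of Retnlg share by depth, 24 of 24 Elane-positive CGG-Cit members and 12 of 13 Elane-positive CGG members lay above 12000 UMIs. Of the deep members, 9 CGG-Cit and 2 CGG barcodes held 50 or more UMIs of Hba-a1, and 0 CGG-Cit and 6 CGG barcodes held 20 or more UMIs of the collagen gene Col1a1.

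Members made up a larger share of the CGG-Cit library. They were 2.91% of its filtered barcodes (exact Clopper-Pearson 95% interval 2.59 to 3.24) and 1.13% (0.952 to 1.34) of the CGG barcodes, a ratio of 2.57. The difference was 1.77 percentage points (Newcombe interval 1.41 to 2.15). This direction was not particular to members. The ratio was 2.60 for barcodes that met the same rule with 10 or more Il1b UMIs. For S100a8-rich barcodes with 20 or more Ltf UMIs it was 2.89. All S100a8-rich barcodes were 30.2% of filtered barcodes in CGG-Cit and 15.9% in CGG. Of the S100a8-rich barcodes, 3185 in CGG-Cit and 1954 in CGG, members were 9.61% (8.61 to 10.7) in CGG-Cit and 7.11% (6.01 to 8.34) in CGG. Those with fewer than 20 Ltf UMIs that missed the Csf3r or Cxcr2 limit were 22.9% in CGG-Cit and 47.1% in CGG. Among barcodes that met every limit except that on Il1b, members were 33.8% of 905 in CGG-Cit and 34.1% of 408 in CGG, a difference of −0.26 points (−5.86 to 5.18). In barcodes up to 12000 UMIs these shares were 31.9% of 824 and 30.9% of 366. The interval of this difference included 0. These intervals cover counting error only, and a limit in UMIs takes a different share of barcodes at different depths.

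Barcodes lay on both sides of the Il1b, Csf3r, Cxcr2 and Ltf limits, and few lay near that of S100a8. Just inside the Il1b limit, at 8 to 9 UMIs, there were 37 CGG-Cit and 25 CGG members, and just outside it, at 10 to 11 UMIs, 37 and 18 barcodes. Retnlg stood at 32144 and 20100 CPM inside, against 28318 and 24571 CPM outside. At the Csf3r limit, 119 and 42 members had 2 UMIs, against 150 and 58 barcodes with 1 UMI that met the other limits. At the Cxcr2 limit, 55 and 30 members had 1 UMI, against 136 and 74 barcodes with none. Those without Cxcr2 had medians of 34048 and 5093.5 UMIs and 975 and 1946 CPM of Retnlg, against 8905 and 6872 CPM in the members with 1 UMI. At the Ltf limit, 12 CGG-Cit and 2 CGG members had 15 to 19 UMIs, against 12 and 2 barcodes with 20 to 24. Retnlg there stood at 54019 CPM inside and 15099 CPM outside in CGG-Cit, and at 1762 and 27556 CPM in CGG. At the S100a8 limit, 2 CGG-Cit and 2 CGG members had 50 to 59 UMIs, against 0 and 1 barcodes with 40 to 49.

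Compared with the neutrophils that met the same rule with 10 or more Il1b UMIs (599 in CGG-Cit and 269 in CGG), members were lower in inhibitors and targets of the NF-kB pathway and higher in secondary granule genes. Both classes were drawn from counts of the same cells, so these values are descriptions without a test. Over all members, 146 of 5872 genes (2.49%) were at least 2-fold higher in both libraries and 75 (1.28%) at least 2-fold lower. Up to 12000 UMIs, 12 of 4488 genes (0.267%) were at least 2-fold higher and 54 (1.20%) at least 2-fold lower. Among the genes named by the rule, the highest over all members were the primary granule and progenitor genes Ms4a3, Prss57, Nkg7, Prtn3, Elane, Mpo and Cst7 with Gatm, and none of these 8 was among the 8 highest up to 12000 UMIs. In that range the ratio of Gatm in the library where it is nearer to 1 was −0.42 on the log2 scale, against 2.58 over all members.

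Nfkbia, which encodes the inhibitor that holds NF-kB in the cytoplasm (chromosome 12, 55489410 to 55492647), stood at 234 CPM in CGG-Cit members and 638 CPM in CGG-Cit high-Il1b neutrophils (ratio 0.367, 95% counting interval 0.323 to 0.416), both up to 12000 UMIs. In CGG it stood at 299 CPM in members and 1122 CPM in high-Il1b neutrophils (ratio 0.266, 0.223 to 0.316). Tnfaip3, the ubiquitin-editing inhibitor A20, had ratios of 0.361 in CGG-Cit and 0.466 in CGG. Cxcl2, a chemokine that attracts neutrophils through Cxcr2, stood at 1934 CPM in members and 3909 CPM in high-Il1b neutrophils of CGG-Cit, and at 2125 and 5760 CPM in the same classes of CGG. Ptgs2, the inducible cyclooxygenase, had ratios of 0.439 and 0.241, and Ccrl2, a chemerin-binding receptor, of 0.441 and 0.291. Of the 22 genes of the inflammatory list that passed the low-count limits, 20 were lower in members in both libraries by any size (45.3% of all genes tested), 0 higher in both, and 5 at least 2-fold lower. The list medians were −0.80 in CGG-Cit and −0.97 in CGG (log2 ratio of members to high-Il1b neutrophils), beside medians over all genes of −0.18 and −0.11.

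Immediate early genes, which cells induce within minutes of a stimulus and also during tissue digestion, were lower in members as well. All 18 that passed were lower in both libraries by any size (45.3% of all genes tested). Of them 2 (Atf3 and Dusp1) were at least 2-fold lower (1.20% of all genes tested). The list medians were −0.75 and −0.76. Dusp1, a phosphatase of mitogen-activated kinases, stood at 1558 CPM in members and 3171 CPM in high-Il1b neutrophils of CGG-Cit, and at 857 and 1823 CPM in CGG. Atf3, a stress-induced transcription factor, had ratios of 0.146 and 0.405, and Gadd45b, a stress-induced regulator of kinases, of 0.281 and 0.325. The Bcl2 family had 7 of 11 genes lower in both libraries by any size, beside 45.3% of all genes. At least 2-fold lower were 3 of them (Bcl2a1b, Bcl2a1d and Pmaip1), beside 1.20% of all genes. Bcl2a1b and Bcl2a1d are near-identical copies whose reads the counting could have split.

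Secondary granule genes went the other way. Of 12 that passed, 11 were higher in members in both libraries by any size (18.98% of all genes tested) and 3 at least 2-fold, with medians of 0.86 and 0.67. Ngp, a granule protein of the cystatin superfamily (chromosome 9, 110419747 to 110423012), stood at 4827 CPM in members and 1885 CPM in high-Il1b neutrophils of CGG-Cit, and at 4340 and 1985 CPM in CGG. Camp, the cathelicidin antimicrobial peptide precursor, had ratios of 2.23 (2.12 to 2.36) and 2.66 (2.44 to 2.89). Mmp8, the neutrophil collagenase, had ratios of 1.87 and 1.75, Ly6g, a neutrophil surface antigen, 1.75 and 1.71, and Cd177, another neutrophil surface glycoprotein, 2.23 and 2.05. Retnlg had 1.41 and 1.48. Osm, the cytokine oncostatin M, stood at 1134 CPM in both classes of CGG-Cit, and at 452 CPM in members and 504 CPM in high-Il1b neutrophils of CGG (ratio 0.896, 0.763 to 1.05).

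The promoters of 3 of these genes, chosen after their values were seen, hold motifs of the factor families known for each group, and are shown because the lower and higher groups can be read side by side in them. The motifs searched on both strands of the 250 bases before and 50 bases after the start site were GGG, any 2 bases and TTTCC for NF-kB, and TTGCNNAA (N is any base) for C/EBP factors, the family that drives granule genes. They occur in 1.63% and 10.8% of the 32851 mouse promoters of this length in RefSeq (GRCm38.p6). Each is printed on its gene's own strand with matches in capitals, from chr12:55492598-55492897 (minus strand), chr5:90903649-90903948 (plus strand) and chr9:110419558-110419857 (plus strand).
Nfkbia: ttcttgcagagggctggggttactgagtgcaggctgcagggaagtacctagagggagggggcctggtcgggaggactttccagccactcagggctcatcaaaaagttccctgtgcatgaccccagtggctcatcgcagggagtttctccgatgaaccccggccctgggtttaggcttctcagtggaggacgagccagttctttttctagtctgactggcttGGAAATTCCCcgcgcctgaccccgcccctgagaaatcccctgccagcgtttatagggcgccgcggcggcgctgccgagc
Cxcl2: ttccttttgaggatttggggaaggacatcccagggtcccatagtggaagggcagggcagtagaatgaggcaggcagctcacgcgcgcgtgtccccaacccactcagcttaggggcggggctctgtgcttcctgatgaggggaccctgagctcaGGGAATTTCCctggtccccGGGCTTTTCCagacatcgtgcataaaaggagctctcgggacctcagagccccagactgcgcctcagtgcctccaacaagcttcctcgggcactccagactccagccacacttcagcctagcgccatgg
Ngp: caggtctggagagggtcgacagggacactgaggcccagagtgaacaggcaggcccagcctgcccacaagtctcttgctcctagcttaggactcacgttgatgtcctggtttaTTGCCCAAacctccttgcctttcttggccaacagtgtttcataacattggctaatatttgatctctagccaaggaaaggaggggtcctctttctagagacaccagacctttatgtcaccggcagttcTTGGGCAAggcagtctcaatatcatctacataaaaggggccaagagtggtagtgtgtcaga
The Nfkbia promoter held 1 NF-kB match, on the strand opposite to the gene, and that of Cxcl2 held 2. The Ngp promoter held 2 C/EBP matches, and those of Ltf, Lcn2, Mmp8 and Retnlg held 1 each. These letters were not in the window of Camp, Chil3 or Cd177 for C/EBP, nor in that of Ptgs2, Gadd45b or Ccrl2 for NF-kB, and Ptgs2 held 2 C/EBP matches. A match is a description of the sequence.

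Within the barcodes ordered by Il1b UMIs, the same genes moved across the limit rather than at it. In barcodes up to 12000 UMIs, CGG-Cit had 99 barcodes with 0 Il1b UMIs, 89 with 1 to 4, 75 with 5 to 9, 296 with 10 to 29 and 265 with 30 or more. CGG had 24, 42, 47, 152 and 101. Ngp stood at 5067, 5124, 4078, 2754 and 867 CPM over these bins in CGG-Cit, and at 6581, 4283, 2628, 2600 and 1180 CPM in CGG. Mmp8 stood at 3090, 3050, 2550, 2005 and 1067 CPM in CGG-Cit, and at 2690, 2238, 1891, 1543 and 935 CPM in CGG. Each was lower in the highest bin than in the 0 bin in both libraries, with intervals that do not overlap.

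Cxcl2 stood at 1525, 2003, 2477, 3533 and 4348 CPM in CGG-Cit, and at 1135, 1942, 3091, 3546 and 8657 CPM in CGG. Nfkbia stood at 187, 247, 291, 514 and 783 CPM in CGG-Cit, and at 195, 211, 468, 733 and 1631 CPM in CGG. Up to 4 Il1b UMIs the libraries lay close together for Nfkbia, and from 5 UMIs on CGG lay higher. Osm showed no such order, at 1087, 1189, 1137, 1232 and 1020 CPM in CGG-Cit and 542, 342, 491, 429 and 604 CPM in CGG, and lay higher in CGG-Cit in every bin. Median depth moved with the order, at 5059 UMIs in the 0 bin and 3453 UMIs in the highest bin of CGG-Cit, and at 5548 and 3912 UMIs in CGG. Its part in the order was not tested.

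**Figure D2:**
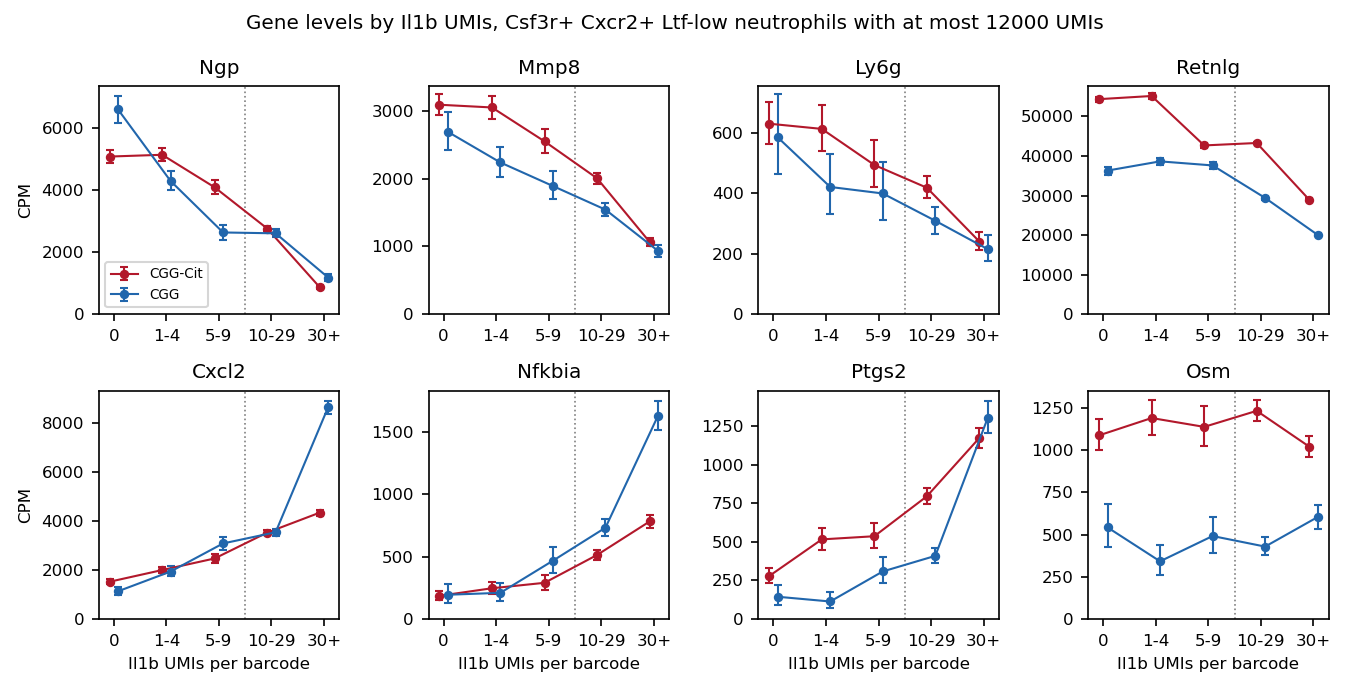
CPM of 8 genes (vertical axes from 0) in bins of Il1b UMIs per barcode for CGG-Cit (red) and CGG (blue), barcodes with at most 12000 UMIs, with exact Poisson 95% intervals. The dotted line marks the limit of 10 UMIs between members and high-Il1b neutrophils; granule and surface genes (top row) lie lower and Cxcl2, Nfkbia and Ptgs2 higher in the bin of 30 or more UMIs than in that of 0, while Osm separates the libraries in every bin.

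Ltf-rich neutrophils (20 or more Ltf UMIs) numbered 1550 in CGG-Cit and 626 in CGG. They met the same S100a8 limit, with no minimum of Csf3r or Cxcr2. Compared with them, members had far less of the other secondary granule transcripts and more of surface receptors, stefins and interferon-induced genes. The rule itself separates the classes by receptor and granule counts, so these values are descriptions without a test. Across all members, 264 of 5932 genes (4.45%) were at least 2-fold higher in both libraries and 69 (1.16%) at least 2-fold lower. Up to 12000 UMIs, 307 of 4737 genes (6.48%) were at least 2-fold higher and 213 (4.50%) at least 2-fold lower. Ltf-rich barcodes were deeper, with medians of 10528.5 UMIs in CGG-Cit and 10228.5 in CGG, and 42.0% and 40.9% of them lay above 12000 UMIs. Values below are for barcodes up to that limit.

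Secondary granule genes had 8 of 14 members of the list at least 2-fold lower in both libraries. Camp stood at 2482 CPM in members and 37849 CPM in Ltf-rich neutrophils of CGG-Cit, and at 2457 and 33199 CPM in CGG. Chil3, the chitinase-like protein Ym1, stood at 136 and 4057 CPM in CGG-Cit, and at 184 and 3677 CPM in CGG. Cebpe, the C/EBP factor of the granule stage, stood at 46.9 and 297 CPM in CGG-Cit, and at 20.5 and 167 CPM in CGG. Cell cycle genes were lower by any size in both libraries in 14 of 14 that passed (36.9% of all genes tested), 7 of them at least 2-fold, with medians of −1.16 and −1.78. Zmpste24, the protease that processes prelamin A, had ratios of 0.0336 and 0.0555, and Lta4h, the leukotriene A4 hydrolase, of 0.0512 and 0.119.

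Receptors and adhesion genes had 19 of 27 higher in both libraries by any size (38.9% of all genes tested), 8 of them at least 2-fold, and 6 lower. Retnlg stood at 51567 CPM in members and 12665 CPM in Ltf-rich neutrophils of CGG-Cit, and at 37614 and 9967 CPM in CGG. Clec4d, a C-type lectin that recognises microbial glycolipids, had ratios of 9.70 and 6.31, and Ccr1, a chemokine receptor, of 3.19 and 3.69. Ltb4r1, the leukotriene B4 receptor, was lower, with ratios of 0.326 and 0.265. Ccl6, a chemokine, stood at 2458 and 107 CPM in CGG-Cit, and at 1970 and 166 CPM in CGG.

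All 6 stefin A genes that passed were at least 2-fold higher in members in both libraries, beside 6.48% of all genes. They encode inhibitors of cysteine proteases. Gm5483 stood at 1087 and 64.1 CPM in CGG-Cit, and at 1692 and 68.6 CPM in CGG, and Stfa2l1 at 507 and 86.5 CPM in CGG-Cit and 593 and 40.6 CPM in CGG. The genes of this cluster are near-identical, so reads may have been split among them. Of 23 interferon-induced genes, 21 were higher in both libraries by any size and 9 at least 2-fold, beside 38.9% and 6.48% of all genes. Their medians were 0.88 and 1.16, beside −0.04 and 0.07 over all genes. Ifitm1 stood at 315 and 28.2 CPM in CGG-Cit, and at 515 and 53.2 CPM in CGG. Cebpb, the C/EBP factor of mature and activated cells, stood at 2589 and 1020 CPM in CGG-Cit, and at 3931 and 1514 CPM in CGG.

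**Figure D3:**
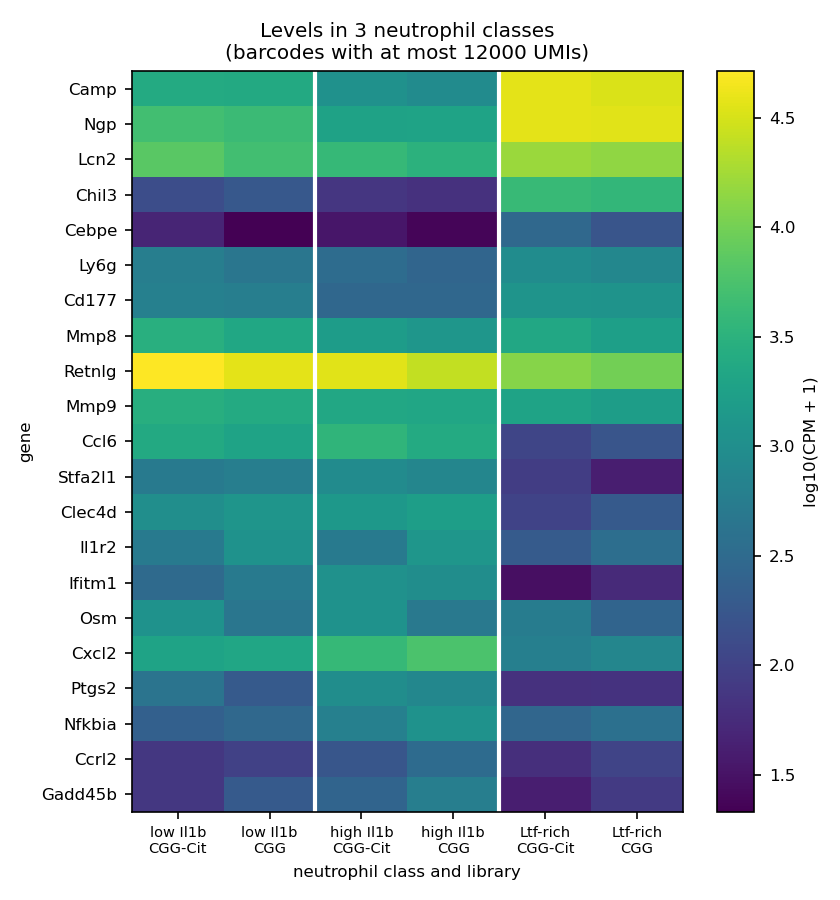
Colour gives log10(CPM + 1) of 21 genes in members (low Il1b), neutrophils with high Il1b and Ltf-rich neutrophils, CGG-Cit left of CGG in each class, barcodes with at most 12000 UMIs. Camp, Ngp and Chil3 are highest in the Ltf-rich class, Retnlg and Ccl6 are high in both Ltf-low classes, and Cxcl2, Ptgs2, Nfkbia, Ccrl2 and Gadd45b are highest with high Il1b.

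Members of the CGG-Cit library and members of the CGG library differed in immediate early and interferon-induced genes, in single genes such as Osm, Thbs1, Wfdc17 and Il1r2, and in transcripts of other lineages. Over all members, 124 of 6814 genes (1.82%) were at least 2-fold higher in CGG-Cit and 751 (11.02%) at least 2-fold lower, with a median log2 ratio of −0.15 over all genes. Up to 12000 UMIs, 247 of 4635 genes (5.33%) were at least 2-fold higher and 402 (8.67%) at least 2-fold lower, with a median of −0.11. Of the 12 highest genes named over all members, 7 stayed past 2-fold up to 12000 UMIs, and 12 of the 12 lowest did. The primary granule genes did not. Elane stood at 5154 CPM in CGG-Cit members and 2357 CPM in CGG members over all (ratio 2.19), but at 69.1 and 57.3 CPM up to 12000 UMIs (1.21, 0.780 to 1.92). Mpo, the myeloperoxidase gene, had a ratio of 1.91 over all and 0.629 (0.388 to 1.04) up to 12000 UMIs, and Prtn3, proteinase 3, 1.87 and 0.530 (0.348 to 0.814). Up to the limit Mpo stood at 37.3 CPM in CGG-Cit members and 59.3 CPM in CGG members, beside 148 and 24.9 CPM in B lineage barcodes, and Prtn3 at 44.5 and 83.9 CPM, beside 201 and 26.6 CPM. Both thus stood below the B lineage level in CGG-Cit and above it in CGG. The CGG levels up to the limit rested on few barcodes. The 29 Mpo UMIs lay in 3 CGG members and the 41 Prtn3 UMIs in 14. A CGG member of 5597 UMIs held 22 of the 28 Elane UMIs, with 1 UMI of Retnlg. The part of single barcodes in these ratios was not tested.

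**Figure D4:**
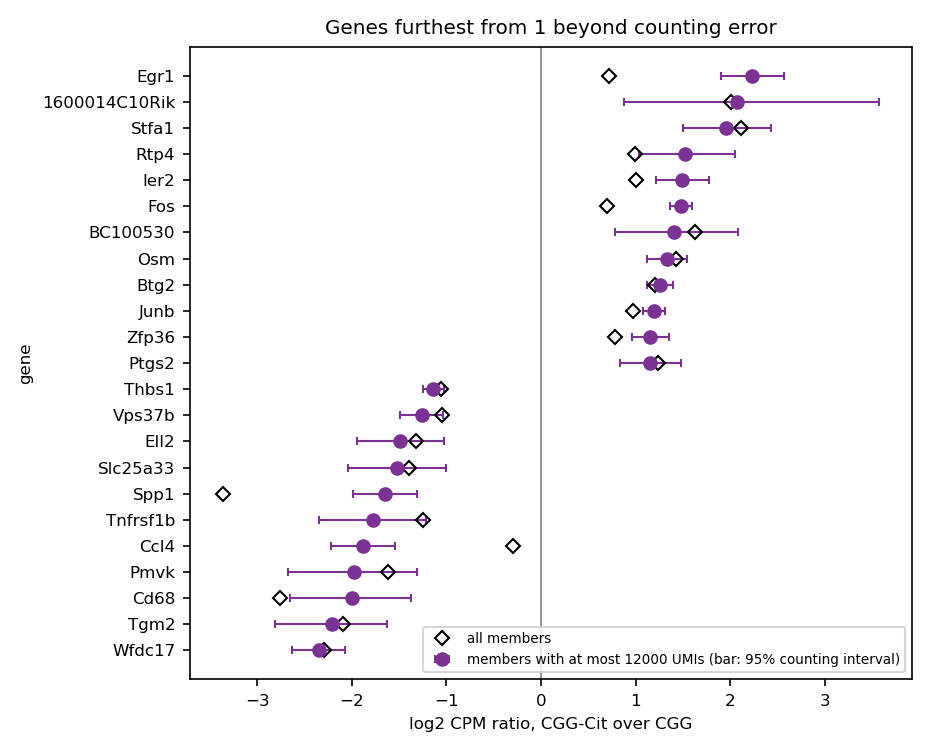
Log2 CPM ratio of CGG-Cit over CGG for the 23 genes named by the rule up to 12000 UMIs that had UMIs in both libraries, with 95% counting intervals (filled) and the ratio over all members (open). Egr1, Fos and Ier2 lie farther from 0 up to the limit than over all members, whereas Osm, Btg2, Wfdc17 and Thbs1 lie at about the same place, and Ccl4 is near 0 over all members.

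Immediate early genes made up 6 of the 12 highest named genes up to 12000 UMIs. Of the list, 7 of 18 were at least 2-fold higher in CGG-Cit (Egr1, Ier2, Klf2, Fos, Btg2, Junb and Zfp36) and 2 at least 2-fold lower (Atf3 and Jun), with a list median of 0.43. Among all genes up to the limit 5.33% were higher and 8.67% lower by that much. Over all members the median was 0.15, with 2 genes at least 2-fold higher and 5 lower, beside 1.82% and 11.02% of all genes. With the Il1b and Ltf limits set as shares of UMIs, the median over all members turned to −0.10 and the log2 ratio of Egr1 to −0.090. Egr1, a zinc finger factor, stood at 793 CPM in CGG-Cit members and 170 CPM in CGG members (ratio 4.67, 3.73 to 5.91). Over all members it stood at 447 and 273 CPM (1.64). Fos, a subunit of the AP-1 factor, stood at 3801 and 1366 CPM (2.78, 2.57 to 3.02), and Junb, its partner, at 3304 and 1448 CPM (2.28, 2.11 to 2.47). Btg2, an anti-proliferative gene, stood at 2525 and 1060 CPM (2.38, 2.17 to 2.62). Atf3 stood at 32.6 and 135 CPM (0.241), and the heat shock gene Hspa1a at 0.794 and 26.6 CPM, beside 2.41 and 75.9 CPM in B lineage barcodes.

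B lineage barcodes did not share this direction for most of these genes. There Fos stood at 237 CPM in CGG-Cit and 677 CPM in CGG, Egr1 at 48.4 and 269 CPM, and Junb at 251 and 504 CPM. Klf2 was about level at 337 and 340 CPM, and Btg2 stood at 511 and 470 CPM. The high-Il1b neutrophils up to 12000 UMIs had 1440 CPM of Egr1 in CGG-Cit and 403 CPM in CGG, and the Ltf-rich neutrophils 402 and 142 CPM. Thinned values here and below cover barcodes of all depths with at least 2000 UMIs, deep members included. With each barcode thinned to 2000 UMIs, CGG-Cit members had a median of 28 UMIs of the list (lowest 2, highest 148, 290 members). CGG members had 16 UMIs (1 to 71, 131 members). In high-Il1b neutrophils the medians were 50 and 26 UMIs, in Ltf-rich neutrophils 12 and 10, and in B lineage barcodes 10 and 11. The part of dissociation in these values was not tested.

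Interferon-induced genes were higher in CGG-Cit members up to 12000 UMIs and not over all members. Up to the limit 21 of 26 were higher by any size (42.2% of all genes tested), 8 at least 2-fold (Slfn5, Ifi27l2a, Cmpk2, Rtp4, Gbp2, Ifit1, Usp18 and Isg15) and 0 at least 2-fold lower, with a median log2 ratio of 0.66. Over all members the median was −0.36, with 0 of 30 at least 2-fold higher and 7 at least 2-fold lower (Cxcl10, Ifih1, Ifi47, Ifit2, Ifit3, Irf7 and Oasl1). Among all genes 5.33% were at least 2-fold higher and 8.67% lower up to the limit, and 1.82% and 11.02% over all members. Ifi27l2a stood at 2357 CPM in CGG-Cit members and 759 CPM in CGG members up to the limit (ratio 3.11, 2.79 to 3.47), and at 1211 CPM in CGG-Cit and 1012 CPM in CGG B lineage barcodes. Rtp4, a receptor-transporting protein, stood at 223 and 77.7 CPM (2.87, 2.04 to 4.14). Isg15, a ubiquitin-like modifier (chromosome 4, 156199424 to 156200818), stood at 352 and 170 CPM (2.07, 1.64 to 2.65). Ifitm3, a membrane protein that restricts viral entry, stood at 1884 and 1180 CPM (1.60). Ifitm1 went the other way, at 315 and 515 CPM (0.612, 0.521 to 0.719).

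The B lineage barcodes had less of the interferon list in CGG-Cit than in CGG. For the genes that passed up to the limit, the summed level was 8036 CPM in CGG-Cit members and 5030 CPM in CGG members, against 2057 and 3134 CPM in B lineage barcodes of the same libraries. Thinned to 2000 UMIs, again with deep members included, the list had a median of 12 UMIs (lowest 0, highest 100) in CGG-Cit members. In CGG members it was 8 UMIs (0 to 88). A count of 10 or more was reached by 59.7% and 42.0% of them. The medians were 15 and 12 UMIs in high-Il1b neutrophils, 5 and 5 in Ltf-rich neutrophils, and 3 and 3 in B lineage barcodes. The ranges of single members overlapped widely between the libraries.

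The promoter of Isg15 is printed because it holds several copies of the element that interferon-activated factors bind. The motif (GAAA, any 2 bases and GAAA), searched on both strands, occurs in 3.44% of RefSeq promoters. The sequence is from chr4:156200769-156201068 (GRCm38.p6, minus strand, printed on the gene's strand), with its 3 matches, which overlap each other, in capitals.
Isg15: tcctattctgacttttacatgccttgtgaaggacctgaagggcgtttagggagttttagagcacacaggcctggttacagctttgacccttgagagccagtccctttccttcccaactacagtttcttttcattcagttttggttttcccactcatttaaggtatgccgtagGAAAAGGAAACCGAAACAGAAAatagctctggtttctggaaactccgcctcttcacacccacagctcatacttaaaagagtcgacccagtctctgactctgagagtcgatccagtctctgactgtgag
The Ifit1 promoter held 2 matches and that of Rsad2 held 1. A match is again only a description.

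Osm was the 1 secreted signal of its list at least 2-fold higher in CGG-Cit members. This cytokine of the interleukin 6 family, known to act on osteoblast precursors through gp130 (chromosome 11, 4236420 to 4241026), stood at 1134 CPM in CGG-Cit members and 452 CPM in CGG members up to 12000 UMIs (ratio 2.51, 2.18 to 2.90), and at 630 and 234 CPM over all members (2.69, 2.36 to 3.08). After thinning, 64.1% of CGG-Cit members (58.3 to 69.7) and 42.0% of CGG members (33.4 to 50.9) held a UMI, beside 3.65% and 2.51% of B lineage barcodes. Without thinning these shares were 75.2% and 69.8% of members. The high-Il1b neutrophils up to the limit had 1134 and 504 CPM, and the Ltf-rich neutrophils 560 and 263 CPM, so the direction was shared by all 3 neutrophil classes. Ptgs2 stood at 426 CPM in CGG-Cit members and 192 CPM in CGG members up to the limit (2.21, 1.78 to 2.79). Its levels in CGG-Cit and CGG were 970 and 797 CPM in high-Il1b neutrophils and 63.7 and 66.1 CPM in Ltf-rich neutrophils. The 2-fold difference of Ptgs2 was thus not shared by these classes.

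Several other signals were lower in CGG-Cit members. The list of secreted signals had a median of −0.73 up to 12000 UMIs and −0.30 over all members. Over all members the median turned to 0.12 without the genes at 0.5 or more of their B lineage level. Of the 15 genes of the list that passed up to the limit, 1 (Osm) was at least 2-fold higher. Another 4 were at least 2-fold lower (Ccl4, Spp1, Igf1 and Grn). Among all genes 5.33% were higher and 8.67% lower by that much. Thbs1, the matrix protein thrombospondin 1, which is outside that list, stood at 1137 CPM in CGG-Cit members and 2510 CPM in CGG members (0.453, 0.420 to 0.490). Ccl4, a chemokine, stood at 102 and 374 CPM (0.272, 0.215 to 0.342), but at 187 and 230 CPM over all members (0.813). Spp1, which encodes osteopontin, stood at 109 and 342 CPM (0.319), and thinned barcodes held it in 8.62% of CGG-Cit members and 35.1% of CGG members, beside 1.61% and 17.1% of B lineage barcodes. Wfdc17, a small secreted protein of the whey acidic protein family, stood at 130 and 663 CPM (0.197, 0.162 to 0.238), with 11.03% and 27.5% of thinned members and 2.27% and 11.1% of thinned B lineage barcodes. The background of Spp1 and Wfdc17 in B lineage barcodes was thus also higher in CGG, and its part in these ratios was not tested. Tgm2, a transglutaminase, stood at 31.0 and 143 CPM (0.216). Wfdc17 and Tgm2 are also outside the list of secreted signals. Thbs1, Wfdc17 and Tgm2 were lower in CGG-Cit in both comparison classes up to the limit as well. Thbs1 stood at 737 CPM in CGG-Cit and 1608 CPM in CGG high-Il1b neutrophils, and at 1264 and 2308 CPM in Ltf-rich neutrophils.

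Of 29 receptor and adhesion genes, 3 were at least 2-fold lower in CGG-Cit members and 0 at least 2-fold higher, both up to 12000 UMIs and over all members, beside 8.67% and 11.02% of all genes lower by that much. The share of the list thus lay near that of all genes, with medians of −0.10 and −0.08. The list includes Csf3r and Cxcr2, of which the rule required a minimum. Il1r2, the decoy receptor that captures interleukin 1, stood at 516 CPM in CGG-Cit members and 1139 CPM in CGG members up to the limit (0.453, 0.404 to 0.508), and 45.9% and 67.9% of thinned members held it, beside 0.935% and 1.91% of B lineage barcodes. Tnfrsf1b, a receptor for tumor necrosis factor, stood at 38.1 and 131 CPM (0.291, 0.196 to 0.430), and Ptafr, the receptor for platelet-activating factor, at 79.4 and 172 CPM (0.462). Fpr1, a receptor for bacterial formyl peptides, was higher at 279 and 182 CPM (1.53, 1.21 to 1.95). The inflammatory list had a median of −0.54 up to the limit and −0.38 over all members. Up to the limit 23 genes of the list passed. Of these, Ptgs2 was at least 2-fold higher, beside 5.33% of all genes. Ccl4, Tnfaip3, Nfkbie and Sod2 were at least 2-fold lower, beside 8.67% of all genes. The median of the list includes Il1b, which the rule limited, at 573 CPM in CGG-Cit members and 873 CPM in CGG members.

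Most granule genes lay within 2-fold. Secondary granule genes had a median of 0.26 up to 12000 UMIs, with Fcnb at least 2-fold lower. Fcnb stood there at 4.77 CPM in CGG-Cit members and 53.2 CPM in CGG members. Of these, 0 of 263 and 1 of 113 held 20 or more Fcnb UMIs. In CGG it stood at 117 CPM in members with 4000 to 6000 UMIs, and at most 9.53 CPM in the other depth bins up to the limit. Over all members the list median was −0.00, and Ngp stood at 3487 CPM in CGG-Cit members and 6001 CPM in CGG members. At or below the limit Ngp stood at 4827 and 4340 CPM (1.11, 1.06 to 1.17), Lcn2, the iron-sequestering lipocalin, at 6940 and 4889 CPM (1.42, 1.36 to 1.49), and Mmp8 at 2935 and 2242 CPM (1.31). Retnlg stood at 51567 and 37614 CPM (1.37, 1.35 to 1.39). S100a8 stood at 128047 and 129920 CPM, and S100a9, its partner in calprotectin, at 175334 and 141739 CPM (1.24). Of the 12 S100 and alarmin genes, 3 were at least 2-fold lower (S100a4, S100a10 and Wfdc17) and 0 higher, both up to the limit and over all members. Among all genes 8.67% and 11.02% were lower by that much in these 2 ranges. This list includes S100a8, of which the rule required a minimum, and the secondary granule list includes Ltf, which the rule limited. S100a4, a calcium-binding protein, stood at 15.9 and 77.7 CPM (0.204, 0.113 to 0.360) up to the limit, beside 71.6 and 113 CPM in B lineage barcodes. Tertiary granule genes had medians of 0.01 and 0.32, with Mmp9 at 2828 and 2520 CPM up to the limit (1.12, 1.05 to 1.20).

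Stfa1 and BC100530, a pair of stefin A genes on chromosome 16 (36276951 to 36285373, and 36359382 to 36367748), were at least 2-fold higher in CGG-Cit, but in few members. Stfa1 had 444 UMIs in 22 of 306 CGG-Cit members and 45 UMIs in 4 of 139 CGG members, at 348 and 90.0 CPM up to 12000 UMIs (3.87, 2.83 to 5.40). BC100530 had 177 UMIs in 13 CGG-Cit members and 25 UMIs in 8 CGG members (2.64, 1.71 to 4.24, up to the limit). Gm5483, of the same cluster, was lower, at 1087 and 1692 CPM (0.642, 0.589 to 0.701). The list median was 0.36 up to the limit and 0.22 over all members.

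Macrophage genes led the lower group over all members. C1qa, a subunit of complement C1q, had 0 UMIs in CGG-Cit members and 491 UMIs in 46 of 139 CGG members, at least 374-fold lower by a limit of 3 UMIs over the CGG-Cit members. Up to 12000 UMIs it had 0 UMIs against 96 UMIs, at least 82.4-fold lower by the same limit. Gpnmb, C1qc, Ms4a7, Gdf15 and Atp6v0d2 were also at 0 UMIs in CGG-Cit members, and C1qb, Ctsk, Pf4, Pltp and Lpl at 1 to 6 UMIs. Ctss, a lysosomal protease, stood at 30.6 CPM in CGG-Cit members and 738 CPM in CGG members (0.0415). The background went the same way: C1qa stood at 0.582 CPM in CGG-Cit and 193 CPM in CGG B lineage barcodes, and 16.9% of those of CGG held a UMI after thinning, close to the 16.0% of CGG members (10.2 to 23.5). The share of CGG members with a UMI thus lay at the background share. The summed level of C1qa was 447 CPM over all CGG members, above the B lineage level. The highest single member, a deep barcode of 21813 UMIs, held 173 UMIs. In CGG members up to 12000 UMIs the summed level was 196 CPM, close to the B lineage level.

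In the remaining lists, counts of genes past 2-fold up to 12000 UMIs stand beside 5.33% of all genes higher and 8.67% lower. NADPH oxidase genes, which make the oxidative burst, had medians of 0.10 up to 12000 UMIs and 0.11 over all members, with 0 of 6 past 2-fold in either direction. Actin and migration genes had medians of 0.09 and 0.05, with 0 of 21 past 2-fold. Glycolysis genes had medians of −0.01 and 0.05, with 1 of 17 (Pfkfb3) at least 2-fold higher and 2 (Slc2a1 and Pfkp) lower up to the limit, where Slc16a3, a lactate exporter, stood at 675 CPM in CGG-Cit members and 1334 CPM in CGG members (0.506, 0.457 to 0.561). Tricarboxylic acid cycle genes had medians of −0.05 and 0.08, with 1 of 15 (Sdhc) at least 2-fold lower up to the limit. For citrate and acetyl-CoA genes 3 of 11 passed up to the limit (median −0.79) and 7 of 11 over all members (−0.28), and the citrate importer Slc13a5 was at 0 UMIs in members of either library.

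Bcl2 family genes had medians of −0.54 up to the limit and −0.21 over all members, with 4 of 10 at least 2-fold lower up to the limit (Bcl2l11, Bax, Bcl2a1b and Bcl2a1d) and 0 higher. Mcl1, the survival factor on which neutrophils depend, stood at 1723 CPM in CGG-Cit members and 1520 CPM in CGG members (1.13, 1.04 to 1.23). Bcl2l11, which encodes the death-promoting protein Bim, stood at 37.3 and 115 CPM (0.326, 0.216 to 0.489). Transcription factors of maturation had medians of 0.31 and 0.00, with 4 of 16 at least 2-fold higher up to the limit (Klf2, Junb, Egr1 and Cebpe) and 0 lower. The first 3 are also in the immediate early list. Cebpb stood at 2589 and 3931 CPM (0.659). Cell cycle genes had medians of 0.32 and −0.01, and 4 of the 10 that passed up to the limit were at least 2-fold higher (Ube2c, Stmn1, Top2a and Birc5). They stood at 20.7 to 62.7 CPM in CGG-Cit members and 2.05 to 20.5 CPM in CGG members, and B lineage barcodes had more of each in both libraries. Antigen presentation genes had medians of 0.03 and −0.39, and the class II genes Cd74, H2-Aa, H2-Ab1 and H2-Eb1 were at least 2-fold lower in CGG-Cit members in both depth ranges, as they were in B lineage barcodes. Primary granule genes had medians of 0.25 and 0.90.

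**Figure D5:**
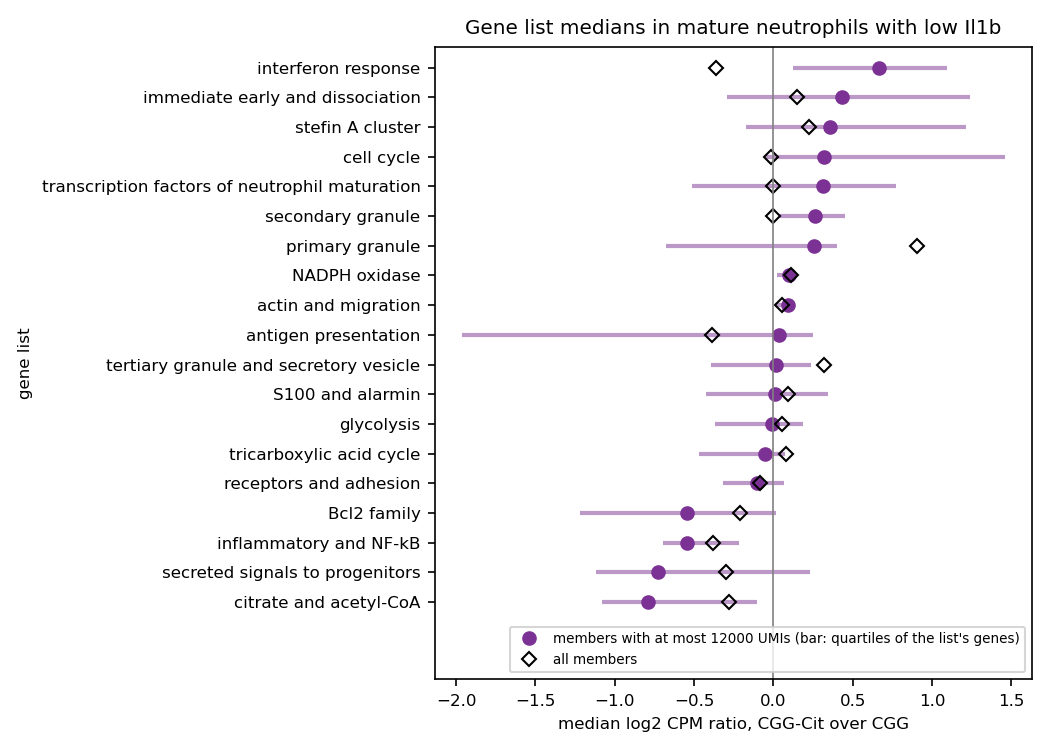
Median log2 CPM ratio of CGG-Cit over CGG for 19 gene lists in members with at most 12000 UMIs (filled, bar from the first to the third quartile of the list's genes) and in all members (open). The interferon list lies at 0.66 up to the limit and −0.36 over all members, and the primary granule list at 0.25 and 0.90.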

How the data were processed

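The authors deposited, per the file headers and the values, unnormalized UMI counts per gene and barcode for 27998 genes, all whole numbers. Cell Ranger 4.0.0 is named per the file headers and Cell Ranger 3.0 per the submitters' processing notes, with build mm10. The sources used here do not give the annotation, and the labels name kit v2 or v3 without saying which. Python 3.11.15 with numpy 2.4.6, scipy 1.17.1, pandas 2.3.3, scanpy 1.11.5 (Scrublet) and matplotlib 3.10.9 was used.

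Counts were summed over members per library and divided by their total to give CPM. Ratios have exact conditional 95% intervals, and levels exact Poisson intervals. Both cover counting error only. Genes needed a mean CPM of 10 and 20 UMIs in both libraries together. List medians use log2 ratios after adding 0.5 UMI. Scrublet marked 5.10% of CGG-Cit and 1 CGG barcode by its own threshold, so the top ranks were marked at 0.8% per 1000 barcodes. No marked barcode was removed in the values reported. With 1 library per hydrogel no test was possible and no p-value is given.

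Named genes were the 12 highest and 12 lowest between hydrogels by the interval bound nearest to 1, where the higher library had a level of 50 CPM or more, 30 UMIs or more and 2 times its B lineage level, the 8 highest and 8 lowest against each comparison class, examples from each list, and the rule's genes. Further genes were named after their values were seen. Members and lists were chosen with earlier results of these data known. The limit of 12000 UMIs was added after seeing the data. Gene positions are from GENCODE M21 (GRCm38).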

Additional observations from a re-analysis of the deposited data

How the results depend on the processing

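No paired analysis was possible because each hydrogel had 1 library. The table of alternatives covers other limits on genes, mitochondrial share, Il1b and Ltf, removal of marked doublets, thinning to 2000 UMIs, other scalings and filters, and, chosen after seeing the data, upper limits of 12000 and 8000 UMIs. Median-of-ratios scaling subtracted a shift of −0.13 from all log2 ratios, which raised them. Causes were not tested beyond what each setting changes by construction.

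The difference in share of filtered barcodes (1.77 points) was 2.60 with Il1b below 20 UMIs, 2.40 with Il1b and Ltf limits as shares of UMIs, 2.25 up to 12000 UMIs and 2.74 up to 8000. That of S100a8-rich barcodes (2.49) was 4.51, 4.54 and 6.57 under the last 3. Genes at least 2-fold higher in CGG-Cit (124) were 193 without marked doublets, 24 at a mean CPM of at least 50, 247 up to 12000 UMIs and 221 up to 8000. Those at least 2-fold lower (751) were 317 after thinning, 147 at a mean CPM of at least 50, 402 and 371. Genes at least 2-fold higher than in high-Il1b neutrophils (146) were 26 after thinning and 12 up to 12000 UMIs. Genes at least 2-fold lower than in Ltf-rich neutrophils (69) were 194 and 213.

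List medians (log2, CGG-Cit over CGG) moved as follows. Those marked as reversed turned sign and had, over all members, an interval (the medians of the genes' interval bounds) that excluded 0. Every other turn of sign here is in a list whose interval over all members included 0. With Il1b below 5 UMIs they were 0.57 for primary granule, 0.049 for secondary granule, 1.23 for stefin, −0.040 (reversed) for S100 and −0.18 for antigen presentation genes. With Il1b below 20 UMIs they were 0.15 for secondary granule, 0.037 for S100 and 0.34 for cell cycle genes. With Ltf below 5 UMIs they were 0.083 for secondary granule and 0.037 for S100 genes. With limits as shares of UMIs they were 1.28 for primary granule, −0.10 for secondary granule, −0.21 for stefin, −0.14 (reversed) for S100, −0.80 for antigen presentation, 0.56 for cell cycle, −0.35 for receptor, −0.081 for NADPH oxidase, −0.10 for immediate early, −0.37 for transcription factor and −0.059 for actin genes. Without marked doublets they were 0.063 for secondary granule and −0.022 (reversed) for S100 genes.

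After thinning they were 0.56 for primary granule, 0.31 for secondary granule, 0.037 for S100, −0.47 for cell cycle, 0.64 for immediate early, −0.27 for transcription factor, −0.10 for glycolysis and −0.53 for tricarboxylic acid cycle genes. As means of single members they were 0.50 for primary granule, 0.29 for secondary granule, 0.036 for S100, −0.17 for antigen presentation, −0.29 for cell cycle, 0.26 for interferon and −0.62 for secreted signal genes. With median-of-ratios scaling they were 0.13 for secondary granule, 0.22 for S100, −0.26 for antigen presentation and 0.18 for actin genes. Without genes at high B lineage background they were 0.16 for S100, 0.53 for immediate early and 0.12 for secreted signal genes. With no filter on low counts tertiary granule genes had −0.18.

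Up to 12000 and 8000 UMIs the medians were 0.25 and 0.11 for primary granule, 0.26 and 0.27 for secondary granule, 0.0100 and −0.030 (the second reversed) for S100, 0.035 and 0.075 (both reversed) for antigen presentation, 0.43 and 0.43 for immediate early, 0.66 and 0.78 for interferon, and −0.73 and −0.70 for secreted signal genes.

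Single genes that reversed were Ccl4 (0.073 and 0.17 with Il1b below 5 and below 20 UMIs), BC100530 (−0.42 with Il1b below 20 UMIs, −0.20 with limits as shares), Egr1 (−0.090 with limits as shares), Mpo (−0.68 and −0.83 up to 12000 and 8000 UMIs), Prtn3 (−0.92 and −1.04 under the same limits) and Gatm against high-Il1b neutrophils (−0.42 up to 12000 UMIs). Depth limits the CGG values, since 113 members up to 12000 UMIs hold 488884 UMIs, and a gene at 0 UMIs there could still reach 3 UMIs of that total.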
